A study of Mus musculus with 30 samples.

Results

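Transcripts of the nuclear-encoded subunits of the respiratory chain were compared in mouse ovaries after colitis in early life. The genes were chosen by name: protein-coding rows of the Ndufa, Ndufb, Ndufc, Ndufs and Ndufv series, Sdha, Sdhb, Sdhc and Sdhd, and all names that begin with Uqcr, with Cox4 to Cox8 or with Atp5. Of 50600 rows, 84 matched, and 80 had a mean of at least 5 normalized counts over the 30 libraries. A normalized count is the number of reads of a gene divided by 1 size factor per library. The 80 genes were 37 of complex I, 4 of complex II, 8 of complex III, 14 of complex IV and 17 of complex V, out of 14646 genes that passed the same minimum and were tested. Cox6a2, with a mean of 4.52, lay just outside the minimum. Lower still were Cox8b (1.69), Cox8c (0.32) and Cox7b2 (0.21). The first genes inside were Cox7a1 (10.41) and Sdhd (17.5). Atp5s and Atp5sl match by name only. Their products are now described as a coupling factor and as an assembly factor of complex I, and they were counted here with complex V.

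Both ovaries of each of 15 C57BL/6 mice were sequenced as separate libraries. Dextran sulfate sodium (DSS), a polysaccharide that damages the lining of the colon, was given to 7 mice at 3% in drinking water for 7 days while they were sexually immature, and 8 littermates were controls. All ovaries were collected after sexual maturity. Each side thus had 7 ovaries from treated and 8 from untreated mice, in 4 groups. In the sample titles, odd library numbers belong to the left side and even ones to the right, so side and library order cannot be told apart.

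The respiratory chain sits in the inner membrane of mitochondria. Complexes I and II pass electrons from NADH and succinate to ubiquinone, complex III passes them to cytochrome c, and complex IV passes them to oxygen. Complex V, the ATP synthase, uses the proton gradient that complexes I, III and IV build. A small core of the chain is encoded by mitochondrial DNA, and all subunits of complex II and most others are encoded in the nucleus. In the ovary, oocytes depend on mitochondrial ATP, and steroid-producing cells make pregnenolone inside mitochondria.

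Many nuclear genes of the chain carry a site for nuclear respiratory factor 1 (NRF1) near their start. RefSeq promoters (GRCm38.p6, 250 bases before to 50 after the start) were found for 67 of the 80 genes. Its palindrome, GCGCA and GCGC parted by any 1 base, was searched on both strands. It stood in 16 of these 67 promoters (23.9%), against 4.78% of 27025 promoters in the table and 10.03% of the 10807 promoters of tested genes. It was in 7 of 32 promoters of complex I, 2 of 3 of complex II, 1 of 5 of complex III, 1 of 11 of complex IV and 5 of 16 of complex V. A match describes the letters and not a bound site. The ETS core CCGGAAG was in 22.4% of the 67 promoters (17.4% of tested genes), AAGATGGCG, a form of the YY1 site, in 10.45% (3.04%), and TATAAA in 7.46% (7.54%), all searched on both strands.
To show the shared letters, 60 bases upstream of the start are printed for 3 genes that were lower in the left ovary (Ndufa8, Atp5h and Atp5k) and for 3 genes that did not pass that test (Ndufa11, Sdha and Cox6a1). Capitals mark the NRF1 palindrome.
Ndufa8, chr2:36049339-36049398, minus strand: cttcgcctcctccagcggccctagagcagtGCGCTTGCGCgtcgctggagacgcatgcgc
Atp5h, chr11:115420026-115420085, minus strand: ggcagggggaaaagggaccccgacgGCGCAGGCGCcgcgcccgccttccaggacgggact
Atp5k, chr5:108434415-108434474, minus strand: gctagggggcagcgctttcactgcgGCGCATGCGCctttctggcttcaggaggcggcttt
Ndufa11, chr17:56717677-56717736, plus strand: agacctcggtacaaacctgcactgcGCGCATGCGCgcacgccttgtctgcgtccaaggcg
Sdha, chr13:74350304-74350363, minus strand: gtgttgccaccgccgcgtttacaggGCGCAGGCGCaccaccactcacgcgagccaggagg
Cox6a1, chr5:115349086-115349145, minus strand: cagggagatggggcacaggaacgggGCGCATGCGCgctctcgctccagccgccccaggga
The palindrome lay 30 bases before the start in Ndufa8, at 50 in Atp5k, 60 in Ndufa11, 98 in Sdha, 141 in Atp5h and 162 in Cox6a1. It stood both in genes that passed the test between the sides and in genes that did not.

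Whole reads could be recovered from the deposited values. They summed to 3095386 to 8564770 per library (median 4305814), and the normalized totals lay between 4105009 and 4608158. The 80 genes took 1.38% to 1.68% of each library's normalized counts. Their summed count ran from 59594 to 72882. The lowest library was DSS_291_11.2_left, in which 66 of the 80 genes lay below their own median over the libraries. This library also had the highest level of Ovgp1, an oviduct glycoprotein, at 66716, and of the fat hormone Adipoq, at 1874. In total 7 libraries exceeded 5000 counts of Ovgp1. Beside DSS_291_11.2_left they were DSS_255_10.4_left, DSS_297_11.1_left, DSS_298_11.1_right, control_250_10.5_right, control_328_13.4_right and control_388_16.9_right. The second lowest sum, 61996, was that of control_250_10.5_right, with Ovgp1 at 41925. Comparisons are therefore given with and without these libraries where that changed a result. Defining genes of the ovary were present: Foxl2, a granulosa cell factor, ranged from 64.0 to 230 counts, and Zp3, a protein of the oocyte coat, from 50.1 to 216.

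The subunit genes varied little among the 30 ovaries. Their coefficients of variation had a median of 10.32%, against 21.7% for all tested genes. Counting noise weighs more on low counts, and the members and all tested genes were not matched by level. The steadiest was Sdha, the flavoprotein subunit of complex II, at 6.22%. The most variable was Cox7a1, the heart and muscle form of a small complex IV subunit, at 37.8%. Cox7a1 also had the lowest mean of the 80 genes (10.41), where counting noise is largest. Transcripts of the 80 genes were short, with a median of 892 nt against 3190 nt for tested protein-coding genes. In complex I, means ran from 35.9 counts for Ndufa4l2 to 1839 for Ndufa12. Complex II ran from 17.5 for Sdhd to 622 for Sdha, and complex III from 112 for Uqcr11 to 2049 for Uqcrc2. Complex IV spanned 10.41 for Cox7a1 to 6564 for Cox6c. Complex V spanned 38.7 for Atp5s to 10752 for Atp5j, coupling factor 6 of the stalk. These are 3′ tag counts with no length correction, so they were not ranked between genes. Cox6c overlaps Vps13b and Atp5j overlaps Gabpa on the opposite strand. Whether reads were counted by strand is not given in the sources used here, so reads of such pairs may be shared.

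Between the sides, subunit genes differed in both directions. With the mouse as a block, 26 of the 80 genes passed an adjusted p of 0.05 (32.5%), against 10.2% of all tested genes. Of these, 20 were lower in the left ovary (5.6% of all genes were called lower) and 6 were higher (4.56%). By complex, 15 of 37 genes of complex I passed (11 lower, 4 higher), 4 of 8 of complex III (3 lower, 1 higher), 2 of 14 of complex IV (1 lower, 1 higher) and 5 of 17 of complex V (5 lower). In complex II, 0 of 4 passed with limma, edgeR or DESeq2, and 1 had an unadjusted p under 0.05. The differences were small, between -0.49 and 0.22 on the log2 scale among the 26. Standard errors were also small, with a median of 0.05 for the subunit genes and 0.10 for all tested genes. As the members had smaller errors than the other genes, the share called cannot be read as larger differences. At an unadjusted p of 0.05 the count was 37 of 80 (46.25%, against 23.7% of all genes). Over all 80 genes the median was -0.02, with 43 below 0, against 0.01 and 48.5% below 0 over all genes tested. In whole ovaries, fewer cells of a type and less RNA per cell cannot be told apart.

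The largest differences among the 26 were those of Ndufa12 and Ndufc2 in complex I. Ndufa12, an accessory subunit of the matrix arm (chromosome 10, 94198955 to 94221743), ranged from 1315 to 1653 counts in left ovaries (median 1544) and from 1821 to 2471 in right ovaries (median 2136). Every left ovary was below every right ovary, which was so for 1 of the 80 genes. Over all genes, left and right ovaries were fully apart, in either direction, for 0.102%. The mean was 1531 ± 101 in left and 2147 ± 194 in right ovaries (SD, n = 15 each). Left was lower in 15 of 15 mice (log2 left minus right -0.49 ± 0.04, SE, adjusted p = 9.41e-08).
Ndufc2, a subunit of the membrane arm (chromosome 7, 97400003 to 97408102), had left values of 720 to 1281 (median 1045) and right values of 1062 to 1571 (median 1503). Left was lower in 14 of 15 mice, although the ranges overlapped. Its log2 difference was -0.46 ± 0.07 (adjusted p = 0.000179).
Ndufs3, a core subunit, had a log2 difference of -0.16 (adjusted p = 0.0388). It overlaps Kbtbd4 on the opposite strand.

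Also lower on the left in complex I were Ndufa1 (log2 -0.23), Ndufa4 (-0.24), Ndufa8 (-0.19), Ndufa13 (-0.15), Ndufb3 (-0.13), Ndufb5 (-0.23) and Ndufb6 (-0.22). Ndufa1, Ndufa8, Ndufa13 and the 3 Ndufb genes encode accessory subunits of, or next to, the membrane arm. Ndufa4 was first assigned to complex I and is now placed in complex IV. Of these, Ndufb6 was lower in the left ovary of all 15 mice, at 586 ± 31.5 against 686 ± 53.3 (SD, n = 15 each). Ndufb6 overlaps Toporsos and Ndufb5 overlaps Mrpl47 on the opposite strand.

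The remaining 4 genes of complex I went the other way. Ndufa7, an accessory subunit of the matrix arm (chromosome 17, 33824591 to 33838616), had left values of 273.79 to 373 (median 343) and right values of 253 to 342 (median 286). It was higher on the left in all 15 mice, with overlapping ranges (log2 0.22 ± 0.04, adjusted p = 0.00206).
Ndufs7, a core subunit that holds the last iron-sulfur cluster before ubiquinone, was higher on the left in 14 mice, at 526.31 ± 31.2 against 459 ± 41.8 (log2 0.20 ± 0.04, adjusted p = 0.00207).
Ndufv2, a core subunit of the NADH-oxidizing end, stood at 367 ± 30.6 against 319 ± 36.0 (log2 0.21 ± 0.05, adjusted p = 0.0137).
Ndufb10 of the membrane arm, which overlaps the ribosomal protein gene Rps2 on the opposite strand, stood at 859 ± 70.8 against 749 ± 65.2 (log2 0.20 ± 0.04, adjusted p = 0.005). Genes for subunits of 1 arm thus moved in opposite directions, with Ndufa12 lower on the left and Ndufa7 higher. Of the other catalytic subunits of complex I, Ndufs1 (0.08 ± 0.05, adjusted p = 0.341) and Ndufv1 (0.13 ± 0.05, adjusted p = 0.124) did not pass.

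**Figure D1:**
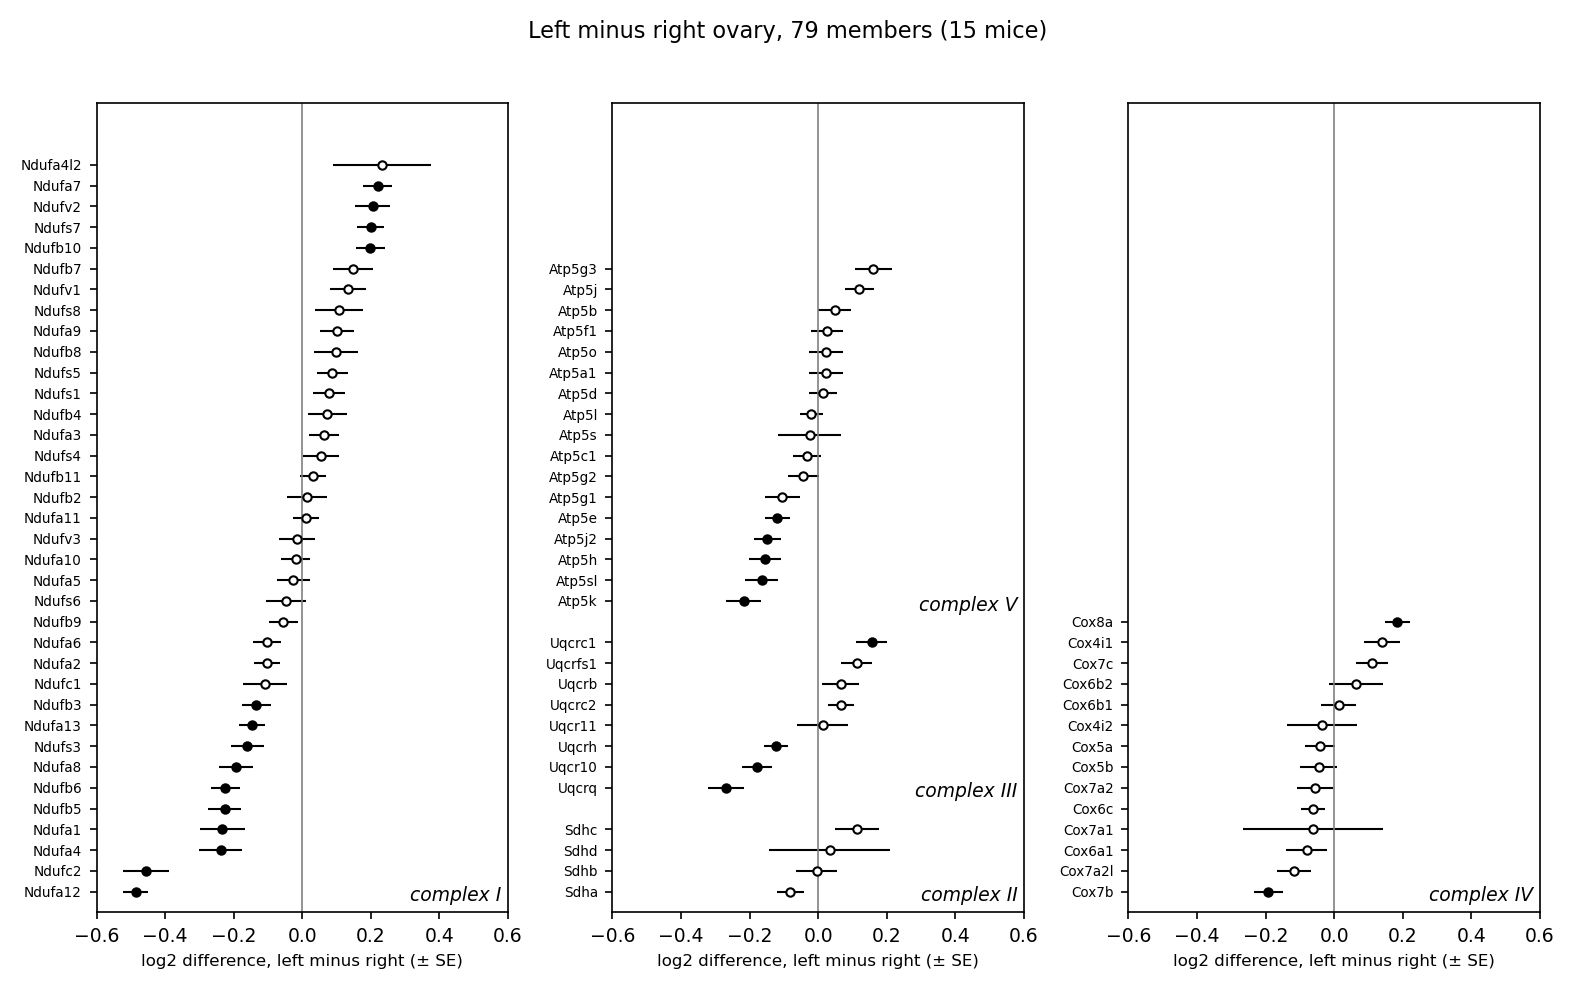
Log2 difference of left minus right ovary (x axis, points with SE bars, 15 mice) for 79 genes, grouped by complex and ordered by the difference; filled points passed an adjusted p of 0.05. Ndufa12 and Ndufc2 lie farthest to the left at -0.49 and -0.46, and filled points stand on both sides of 0 in complexes I, III and IV.

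In complex III, 3 genes were lower on the left and 1 was higher. Uqcrq, a small subunit beside cytochrome b (chromosome 11, 53427622 to 53430831), had left values of 661 to 1258 (median 1050) and right values of 1020 to 1487 (median 1235). It was lower in the left ovary of all 15 mice, though the ranges overlapped (log2 -0.27 ± 0.05, adjusted p = 0.0026). Uqcr10, another small subunit, and Uqcrh, the hinge protein that binds cytochrome c1, also fell, by 0.18 and by 0.12 on the log2 scale.
Uqcrc1, a core protein, ranged from 209 to 296 on the left (median 244) and from 191 to 249.32 on the right (median 228), and was higher on the left in 14 of 15 mice (log2 0.16 ± 0.05, adjusted p = 0.0319). The second core protein Uqcrc2 (0.07 ± 0.04, adjusted p = 0.314) and the Rieske iron-sulfur protein Uqcrfs1 (0.11 ± 0.05, adjusted p = 0.126) did not pass. Nor did the small subunits Uqcrb and Uqcr11, which had differences of 0.07 and 0.01.

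In complex IV, 2 small subunits passed in opposite directions. Cox8a, the form of subunit VIII used outside muscle (chromosome 19, 7214858 to 7217616), had left values of 3274 to 4518 (median 4005) and right values of 3028 to 3848 (median 3516). It was higher on the left in 14 of 15 mice (log2 0.18 ± 0.04, adjusted p = 0.00224).
Cox7b had left values of 484 to 637 (median 513) and right values of 495 to 660 (median 608), and was lower on the left in 12 mice (log2 -0.19 ± 0.04, adjusted p = 0.00644). Cox7a2l, a factor that joins complexes III and IV into supercomplexes, was lower on the left in 14 of 15 mice but did not pass (log2 -0.12 ± 0.05, adjusted p = 0.153).

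In complex V the 5 genes that passed were all lower on the left. Atp5k, subunit e of the membrane part (chromosome 5, 108432944 to 108434448), had left values of 337 to 537 (median 397) and right values of 419 to 521 (median 477), lower in 13 mice (log2 -0.22 ± 0.05, adjusted p = 0.00896). Atp5j2, subunit f, stood at 1234 ± 71.4 against 1368 ± 94.6 (log2 -0.15), and Atp5h, subunit d of the peripheral stalk, at 338 ± 35.9 against 376 ± 30.9 (-0.16). Atp5e, the epsilon subunit of the central stalk, had -0.12, and Atp5sl, the assembly factor, -0.17. The catalytic head did not pass, with Atp5a1 at 0.02 ± 0.05 and Atp5b at 0.05 ± 0.05 (adjusted p = 0.839 and 0.595). The most counted genes of complex V were higher on the left without passing: Atp5j had 0.12 ± 0.04 (adjusted p = 0.0833) and Atp5g3, a gene of the c ring, 0.16 ± 0.05 (adjusted p = 0.0682). DESeq2 called both of them higher.

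**Figure D2:**
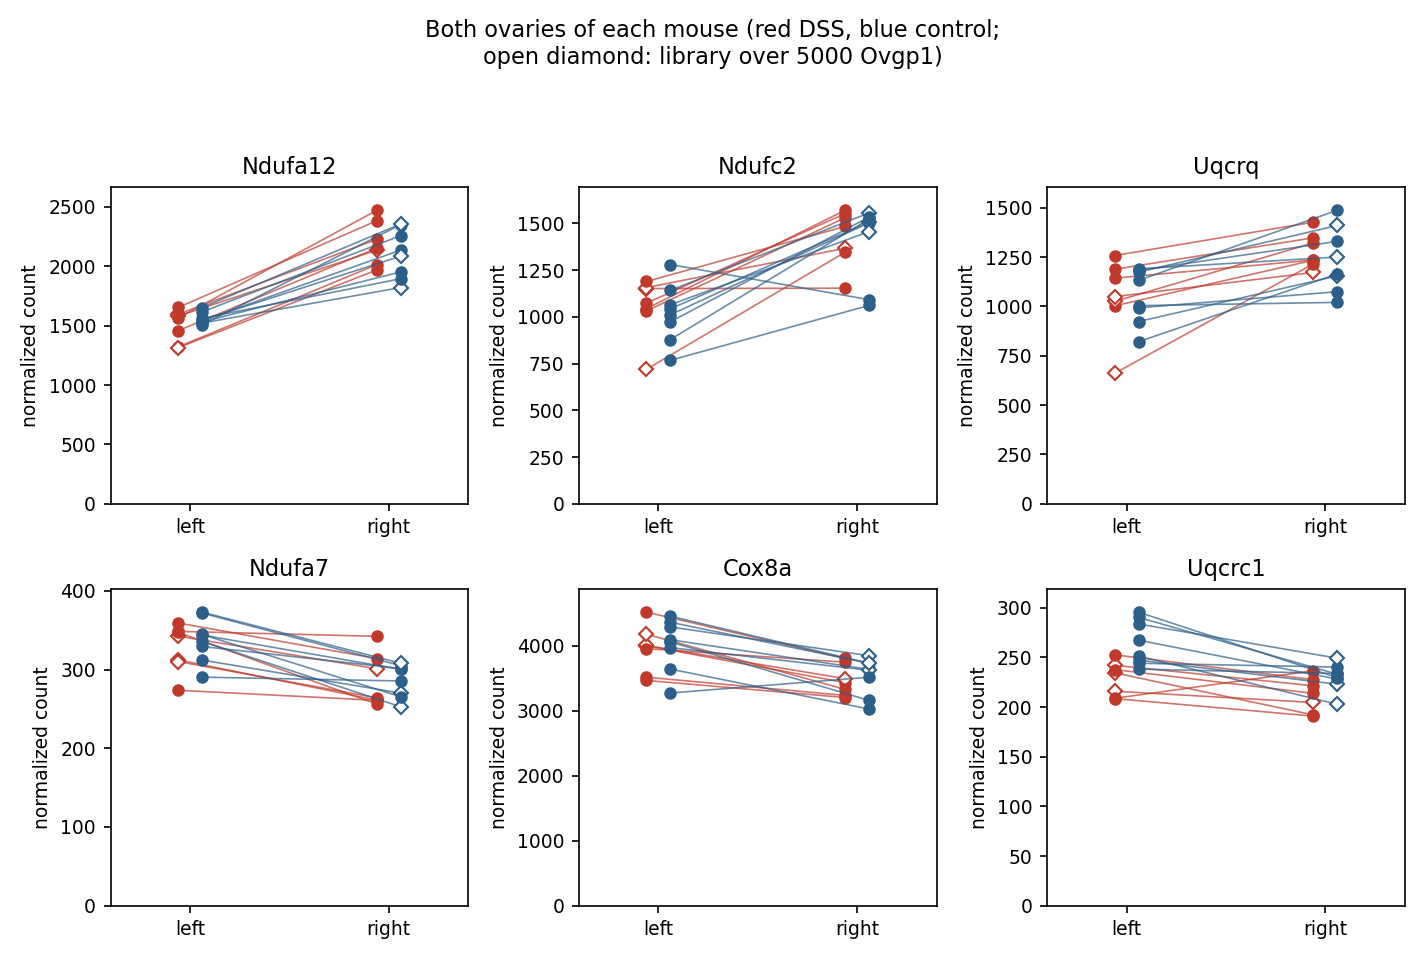
Normalized counts (y axis, from 0) of 6 genes in the left and right ovary of each mouse, joined by a line per mouse; red is DSS, blue is control, and open diamonds mark libraries over 5000 counts of Ovgp1. The lines of Ndufa12 and Uqcrq rise from left to right in all 15 mice, those of Ndufa7 drop in all 15, and those of Cox8a and Uqcrc1 drop in 14.

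Of the 26 genes, 24 moved in the called direction in at least 12 of 15 mice, and the count ran from 11 to 15. In all 15 mice, 3 of the 80 genes were lower on the left (0.724% of all genes) and 1 was higher (0.362%). All 26 kept their sign in DSS mice and in control mice taken alone, with edgeR and DESeq2, and under every scaling tried. edgeR called the same 26 genes (9.82% of all genes), and DESeq2 called 24, of which 22 were shared (7.86%). Without the mouse block 22 passed, all among the 26 (7.94%). The balance of directions did depend on scaling: 23.1% of the called genes were higher on the left as deposited, 34.8% after quantile normalization (23 genes, 9.46% of all genes) and 33.3% with CPM over nuclear protein-coding genes (24 genes, 10.2% of all genes). The 9 mice without a library over 5000 counts of Ovgp1 gave 7 genes that passed, all lower (5.0% of all genes passed), among them Ndufa12, Ndufc2, Uqcrq, Ndufb6, Cox7b and Ndufa13. Ndufa7 was then at 0.19 and Cox8a at 0.17 without passing. In control mice alone 4 passed, among them Ndufa12, Ndufc2 and Ndufa4 (2.62% of all genes), and in DSS mice alone Ndufa12 (0.785%). Left out in turn, single mice gave 20 to 26 genes.

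Summed by complex, complex I was lower on the left in 13 of 15 mice (median left-to-right ratio 0.932), at 17374 ± 716 against 18452 ± 954 counts (SD, n = 15 each), and in 8 of the 9 mice without high Ovgp1. Most of that difference lay in Ndufa12 (1531 against 2147) and Ndufc2 (1035 against 1416), while over the 37 genes 18 were higher and 19 lower on the left, with a median of -0.01. For complex V the sum was higher on the left in 12 of 15 mice (median ratio 1.03), at 23860 ± 1851 against 23073 ± 1380, the opposite sign to the 5 genes that passed. Atp5j had means of 11209 on the left and 10296 on the right within that sum. The sums of complexes II, III and IV were lower on the left in 8, 7 and 7 mice. These sums are descriptions and were not tested.

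**Figure D3:**
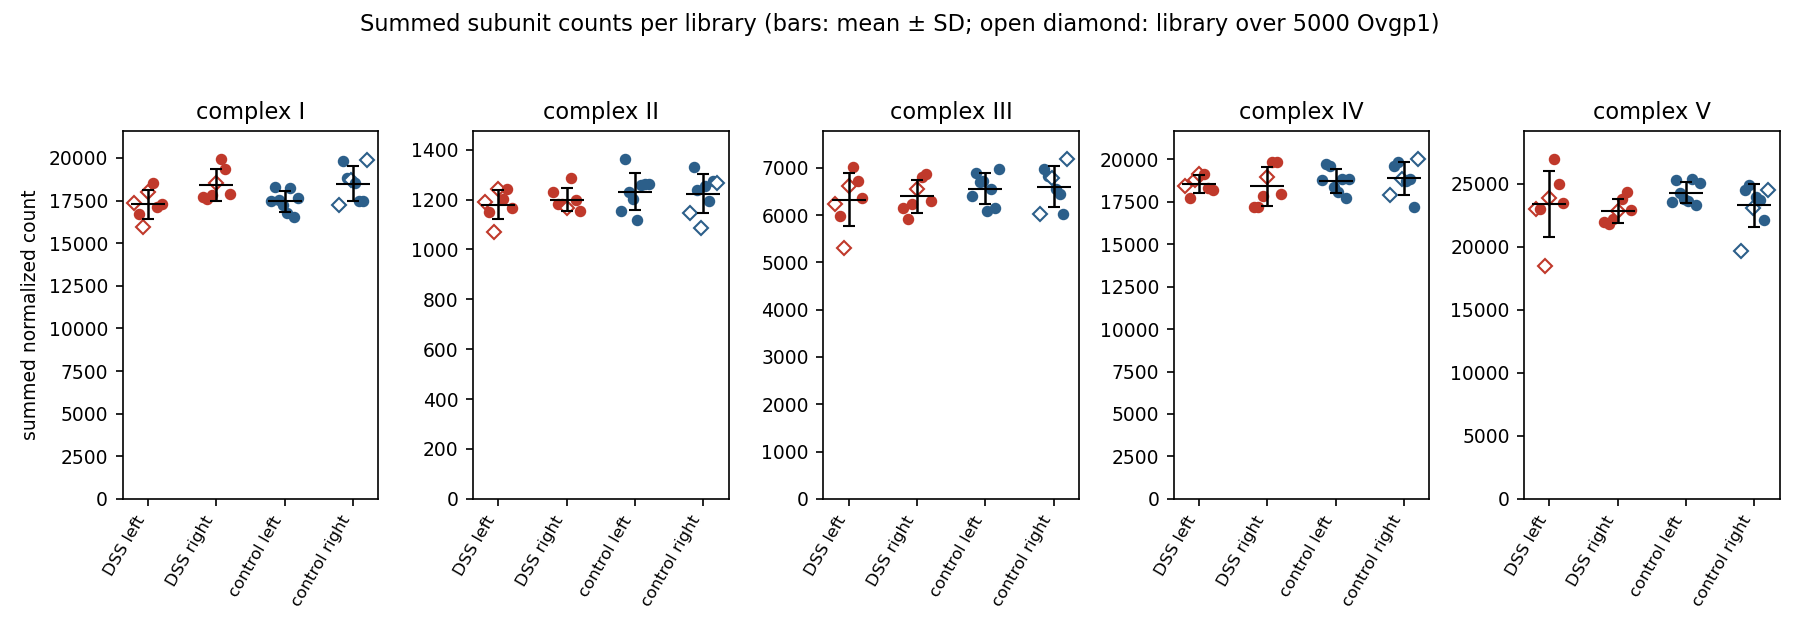
Summed normalized counts of the genes of each complex (y axis, from 0) per library in the 4 groups, with mean and SD bars; open diamonds mark libraries over 5000 counts of Ovgp1. The complex I sums sit lower in left than in right ovaries in both treatment groups, and the lowest points of complexes I, II, III and V are DSS_291_11.2_left.

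Markers of other tissues also differed between the sides. For stratified epithelium, 7 of 7 tested markers were higher on the left and passed, and the summed level of the list ran from 127 to 6374 counts in left and from 37.6 to 880 in right ovaries. Dsg3 of that list had a mean under 5. For striated muscle, 4 of 4 tested markers were higher on the left and 2 passed, with sums of 31.7 to 191 and 21.2 to 61.6, while Ckm, Acta1, Mb, Myh1, Myh4 and Actn3 had means under 5. For adipocytes, 7 of 7 were higher and 0 passed with limma (sums of 150 to 11507 and 76.0 to 4105). Luteal cell markers ran lower on the left, with 2 of 9 higher and 0 passed with limma (median sums of 148215 and 166998). Of the oviduct markers 2 of 9 were higher and 0 passed with limma. Their sums ran from 227 to 69075 in left ovaries (median 494) and from 202.5 to 43020 in right ovaries (median 944). The left minus right difference of Ovgp1 was 1.91 in DSS and -2.94 in control mice. Of the smooth muscle and pericyte markers 8 of 10 were higher on the left and 0 passed with limma (sums of 3339 to 24629 and 3308 to 13459). Of the ovary's own markers 4 of 12 were higher, and 1 passed. None of these lists had a gene at 0 in all libraries. The part of these tissues in the subunit differences was not tested. Median GC of the transcripts was 56.5% for the 6 genes higher on the left, 50.1% for the 20 lower and 51.1% for the 54 others, and its part was not tested.

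In the related lists, 18 of 122 genes passed between the sides (14.8%, against 10.2% of all genes). Of 13 mitochondrially encoded subunits, 3 passed (23.1%), all lower on the left: mt-Co3 (10556 ± 1048 against 12760 ± 1257, log2 -0.27), mt-Nd3 (-0.26) and mt-Nd4l (-0.28). Of 10 further chain genes outside the name rule, 3 were lower and 3 higher. Cytochrome c, encoded by Cycs, was lower on the left in all 15 mice, at 2871 ± 373 against 3841 ± 378 (log2 -0.42 ± 0.05, adjusted p = 6.33e-06). Usmg5, a small ATP synthase subunit, was also lower in all 15 (log2 -0.35), and the ATPase inhibitor Atpif1 was lower in 13 (-0.18). Higher were Cyc1, cytochrome c1 of complex III (0.22), Ndufab1, the acyl carrier subunit of complex I (0.19), and Etfdh, which feeds electrons from fat oxidation to ubiquinone (0.25). The transcripts of cytochrome c and of its docking partner Cyc1 thus differed in opposite directions between the sides. In these lists the genes beyond the 2 with the smallest p were named after their values were seen.
Of 43 assembly factors, 2 passed, Ndufaf4 (-0.23) and Ndufaf1 (-0.21), both lower on the left (4.65%, below the share of all genes). Of 18 regulators, Polg, the mitochondrial DNA polymerase, and Tfb2m, a mitochondrial transcription factor, were higher (0.29 and 0.21). Of 18 genes of the tricarboxylic acid cycle and its feeding enzymes, Dlst (-0.30), Pdhx (-0.28) and Suclg1 (-0.21) were lower and Idh3a (0.28) was higher (22.2% passed). Of 7 genes of mitochondrial steroid synthesis, 1 passed (14.3%), Vdac1, the outer membrane channel (0.11). Of 13 genes of coenzyme Q synthesis, 0 passed with limma, and 3 had an unadjusted p under 0.05 (23.1%, against 23.7% of all genes).

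Between DSS and control mice, no subunit gene passed. With both ovaries of a mouse averaged, limma, edgeR and DESeq2 each called 0 of 80, against 0.0%, 0.041% and 0.355% of all genes tested. At an unadjusted p of 0.05, 5 of the 80 genes stood apart (6.25%), against 7.98% of all genes, and the 5 were all lower in DSS mice (3.17% of all genes were lower at that level). Over the 80 genes, 57 had a difference below 0 (71.25%), against 49.4% of all genes, and the median was -0.03 against 0.00. The lowest end of the 95% intervals of the single differences was -0.40 and the highest was 0.51, in different genes. Changes within the interval of a gene may have been missed. The intervals are unadjusted, and the adjusted threshold asks for larger differences.

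The 5 genes were in 4 complexes. Uqcrc1, the core protein of complex III named above, had values per mouse of 200 to 240 in DSS mice (median 223) and 227 to 267 in control mice (median 245). The ranges overlapped (221 ± 13.7 and 247 ± 14.8, SD, n = 7 and 8). The log2 difference was -0.17 ± 0.05 with an adjusted p of 0.449 by limma.
Atp5d, the delta subunit of the central stalk, had values of 707 to 851 in DSS (median 794) and 768 to 928 in control mice (median 858), with log2 -0.14 ± 0.05 and an adjusted p of 0.507 by limma. It overlaps Cbarp on the opposite strand.
Cox5a, a subunit on the matrix face of complex IV, had 250 to 288 (median 270) against 254 to 320.85 (median 297.19), with log2 -0.12 ± 0.06. Its opposite strand carries Gm26631. For Uqcrc1, Atp5d and Cox5a, the median of controls exceeded each of the 7 values of DSS mice, and the ranges overlapped.
In complex I, Ndufa3 had 377 to 438 (median 397) against 403 to 463 (median 430), with log2 -0.10 ± 0.04. In none of the 80 genes were the 7 and the 8 mice fully apart, which was so for 0.0819% of all genes.

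No catalytic subunit passed. Their differences (DSS minus control, log2) were 0.04 ± 0.05 for Ndufs1, -0.07 ± 0.05 for Ndufv1, -0.03 ± 0.06 for Uqcrfs1, -0.11 ± 0.06 for Uqcrc2, -0.06 ± 0.05 for Atp5a1 and -0.07 ± 0.05 for Atp5b. In complex II, Sdha had 583 to 623 counts in DSS mice (median 619) and 608 to 677 in control mice (median 630), a log2 difference of -0.06 ± 0.04. Sdhb, the iron-sulfur subunit, had -0.07 ± 0.08, and the membrane anchors Sdhc and Sdhd -0.02 ± 0.07 and 0.13 ± 0.16. Sdhc overlaps Cfap126, one of the oviduct genes, on the opposite strand. Medians by complex were -0.03 for I, -0.04 for II, -0.03 for III, -0.02 for IV and -0.03 for V. In complex IV the second smallest p belonged to Cox6b2, at -0.09 ± 0.10.

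**Figure D4:**
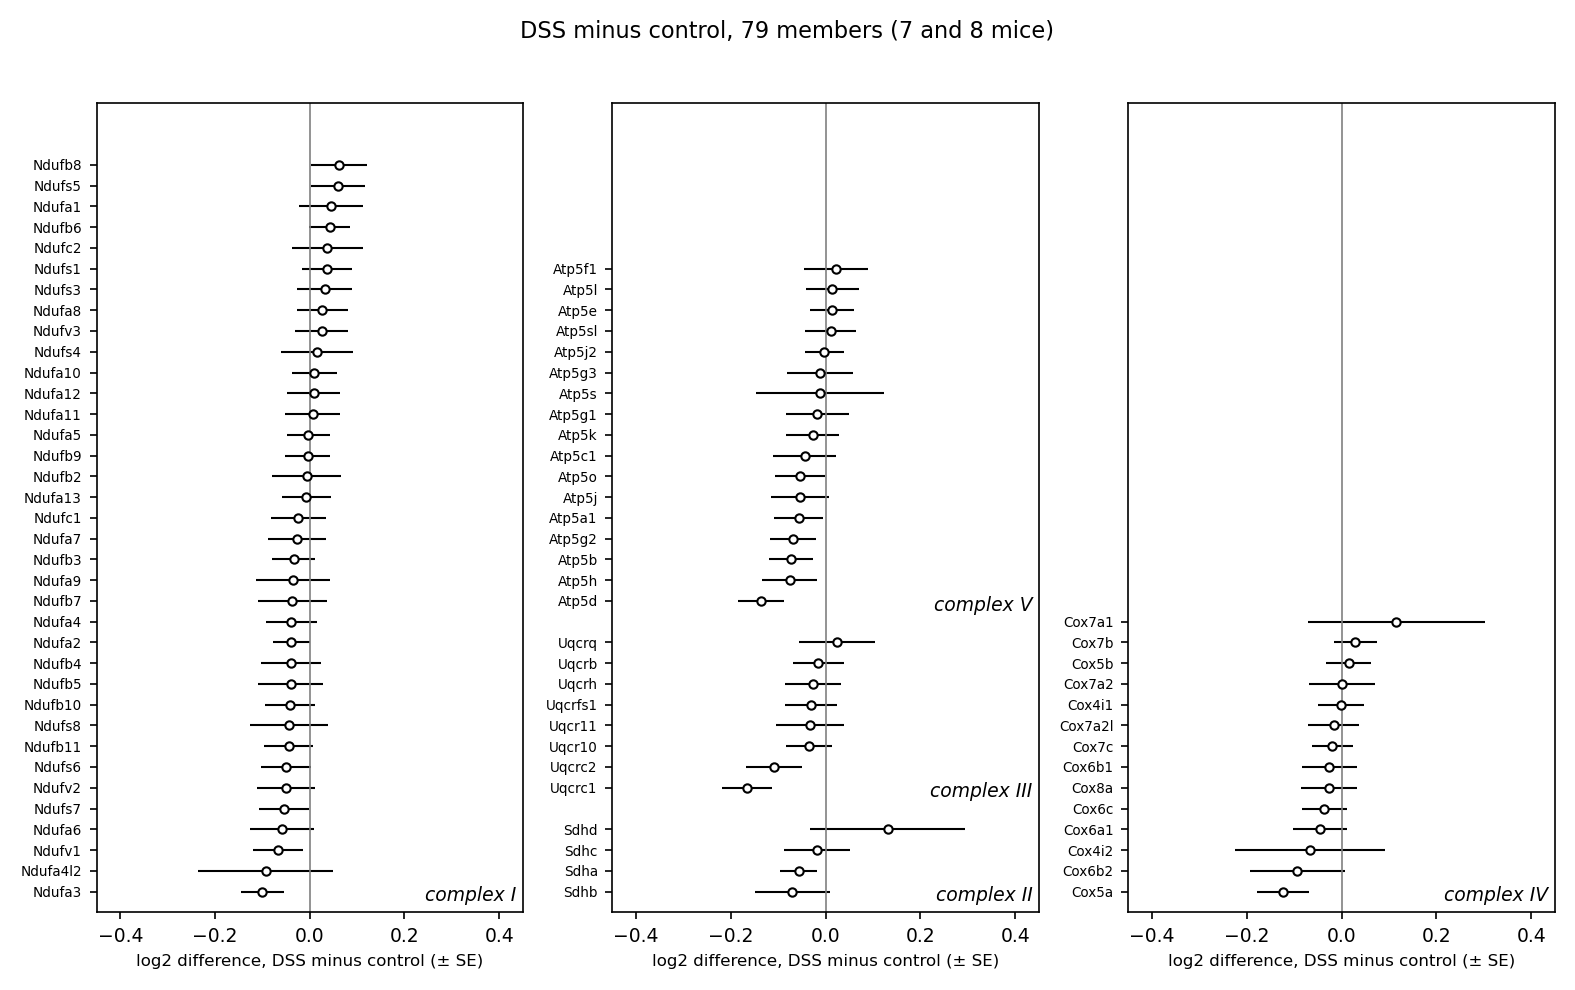
Log2 difference of DSS minus control mice (x axis, points with SE bars, 7 and 8 mice) for 79 genes, grouped by complex and ordered by the difference; no point is filled, as none passed an adjusted p of 0.05. Most points lie slightly left of 0, with Uqcrc1 lowest at -0.17, and the widest bars belong to Sdhd, Cox7a1 and Cox4i2.

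The small downward shift depended on single choices. The count of genes below 0 was 57 as deposited, 51 after quantile normalization and 45 with CPM over nuclear protein-coding genes, where the median was -0.01. It was 57 in left and 46 in right ovaries, 50 without the high-Ovgp1 libraries, 48 without mouse DSS_11.2 and 66 without mouse DSS_13.2. The summed count was 66963 ± 3458 in DSS and 68371 ± 2824 in control mice (SD, n = 7 and 8). Beside this, 9 of 9 oviduct markers were higher in DSS mice and 0 passed with limma, with summed levels of 400 to 35071 in DSS and 239 to 21757 in control mice. Of the adipocyte markers 7 of 7 tested were higher in DSS mice and 0 passed with limma (sums of 304.04 to 5862 and 184 to 3724). For smooth muscle and pericytes, 7 of 10 markers were higher in DSS mice and 0 passed with limma (sums of 3484 to 14113 and 3366 to 8986). Markers of stratified epithelium went the other way, with 0 of 7 higher in DSS mice and 0 passed with limma (sums of 82.5 to 3627, median 170, and 207 to 3168, median 1082). The mitochondrial ribosomal RNA mt-Rnr2 ranged from 121443 to 235973 in DSS and from 82639 to 155174 in control mice. Its log2 difference of 0.58 ± 0.15 did not pass (adjusted p = 0.308 by limma). Across 13043 tested protein-coding transcripts, which share the same libraries, the DSS difference had a Spearman correlation of -0.24 with GC content, and across the 80 genes of -0.31. The part of these in the shift was not tested.

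Related lists gave no call for DSS either. By limma 0 of 43 assembly factors, 13 mitochondrially encoded subunits, 10 other chain genes, 13 coenzyme Q genes, 18 regulators, 18 genes of the tricarboxylic acid cycle and 7 of mitochondrial steroid synthesis passed. At an unadjusted p under 0.05 the counts were 2, 1, 1, 0, 1, 0 and 1, or 6 of 122 genes (4.92%, against 7.98% of all genes). Those genes were Cox15 (0.19) and Cox11 (-0.23), both needed to build complex IV, mt-Nd5 (0.31), Etfa (0.34), which passes electrons from fat oxidation on to Etfdh, Tfam (-0.28), the packaging factor of mitochondrial DNA, and Fdxr (-0.19), the reductase that supplies steroid-making cytochromes.

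The DSS difference did not pass as depending on the side in any subunit gene. In the test of how the left minus right difference of a mouse depended on treatment, limma and edgeR called 0 of 80 genes (0.0% and 0.00683% of all genes), and 2 had an unadjusted p under 0.05 (2.5%, against 8.52% of all genes). Atp5o, a peripheral stalk subunit, had means of 450 ± 48.7 in left and 480 ± 36.3 in right ovaries of DSS mice, and of 503 ± 23.8 and 461 ± 43.5 in those of control mice (SD, n = 7 and 8 mice). Its left minus right difference was -0.10 in DSS and 0.13 in control mice (interaction -0.23 ± 0.09, adjusted p = 0.546 by limma). Its row as deposited spans Donson and Cryzl1 on the same strand and Itsn1 on the opposite strand, so reads may be shared. Ndufv3, a small subunit of the NADH-oxidizing end, went the other way, at 0.09 in DSS and -0.11 in control mice (interaction 0.20 ± 0.10, adjusted p = 0.581 by limma). In complex V, 14 of 17 genes had an interaction below 0 (82.4%, against 50.2% of all genes) with a median of -0.06, and the medians of complexes I, II, III and IV were -0.01, -0.05, -0.02 and 0.02. Over the 80 genes 46 were below 0, and 37 without mouse DSS_11.2. The 17 genes of complex V share the same libraries. Their lowest sum, 18484, was in the left ovary of this mouse, against 22186 in its right ovary. In the other complexes the smallest p belonged to Cox6b2 (-0.31 ± 0.15), Sdha (-0.13 ± 0.07) and Uqcr11 (-0.19 ± 0.14), none of which passed. Ndufa12 had -0.55 in DSS and -0.43 in control mice (interaction -0.12 ± 0.07, adjusted p = 0.645 by limma), and Ndufc2 had -0.45 and -0.46. Ovgp1 was unevenly spread, reaching 66716 counts in DSS left, 10440 in DSS right, 469 in control left and 41925 in control right ovaries. Its left minus right difference was 1.91 in DSS and -2.94 in control mice (interaction 4.85 ± 1.37, adjusted p = 0.533 by limma). The lowest Atp5o values of DSS left (366) and control right ovaries (401) lay in the libraries with the most Ovgp1 of those groups. The part of this in the interactions was not tested.

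Several subunits have a second form that is used in particular tissues. Values below are ranges over the 30 libraries and then DSS against control differences, none of which passed. Cox4i1, the general form, had 562 to 889 counts and Cox4i2, the form of lung and low oxygen, 35.2 to 107 (-0.00 ± 0.05 and -0.07 ± 0.16). Cox6a1 had 361 to 655 (-0.04 ± 0.06) and the heart and muscle form Cox6a2 0.87 to 12.3, too low to test. Cox6b1 had 1205 to 1934 (-0.03 ± 0.06) and the testis form Cox6b2 78.8 to 150 (-0.09 ± 0.10). Cox7a2 had 185 to 290 (0.00 ± 0.07) and Cox7a1 4.03 to 19.9 (0.12 ± 0.19). Ndufa4 had 156 to 247 (-0.04 ± 0.05) and Ndufa4l2, induced by low oxygen, 17.1 to 70.4 (-0.09 ± 0.14). The c ring genes Atp5g1, Atp5g2 and Atp5g3 had differences of -0.02 ± 0.07, -0.07 ± 0.05 and -0.01 ± 0.07. All 5 rarer forms, Cox4i2, Cox6b2, Cox7a1, Cox6a2 and Ndufa4l2, had reads in each of the 30 libraries.
The highest values of the low isoforms are given with markers of other tissues in the same libraries. Cox8b, the muscle and brown fat form of subunit VIII, ran from 0 to 12.8, with its highest value in DSS_291_11.2_left, the library with the most Adipoq. The same library had the lowest Cox4i2 (35.2) and Ndufa4l2 (17.06). Nearly the same Ndufa4l2 value, 17.13, stood in the right ovary of mouse control_15.4. Adipoq was at 9.07 and Ovgp1 at 213 in that ovary. Of 6 brown fat markers, 2 reached the minimum mean and were tested, Dio2 and Ppara, and 0 passed between the sides or for DSS with limma. Ucp1, Cidea, Elovl3 and Cpt1b had means under 5. The summed level of the list ran from 20.03 to 94.89 counts in left and from 24.92 to 72.95 in right ovaries. Within the list, Cpt1b was at 0 in all libraries and Ucp1 did not exceed 1.83. Cox6a2 was highest, at 12.3, in control_327_13.4_left, which also had the most Krt5 (1121), a keratin of stratified epithelium, and the most Ckm (20.1), muscle creatine kinase. The second highest Cox6a2 value was close to it, in control_352_15.3_right, where Krt5 was at 28.1 and Ckm at 3.51. The part of these tissues in the isoform levels was not tested.

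**Figure D5:**
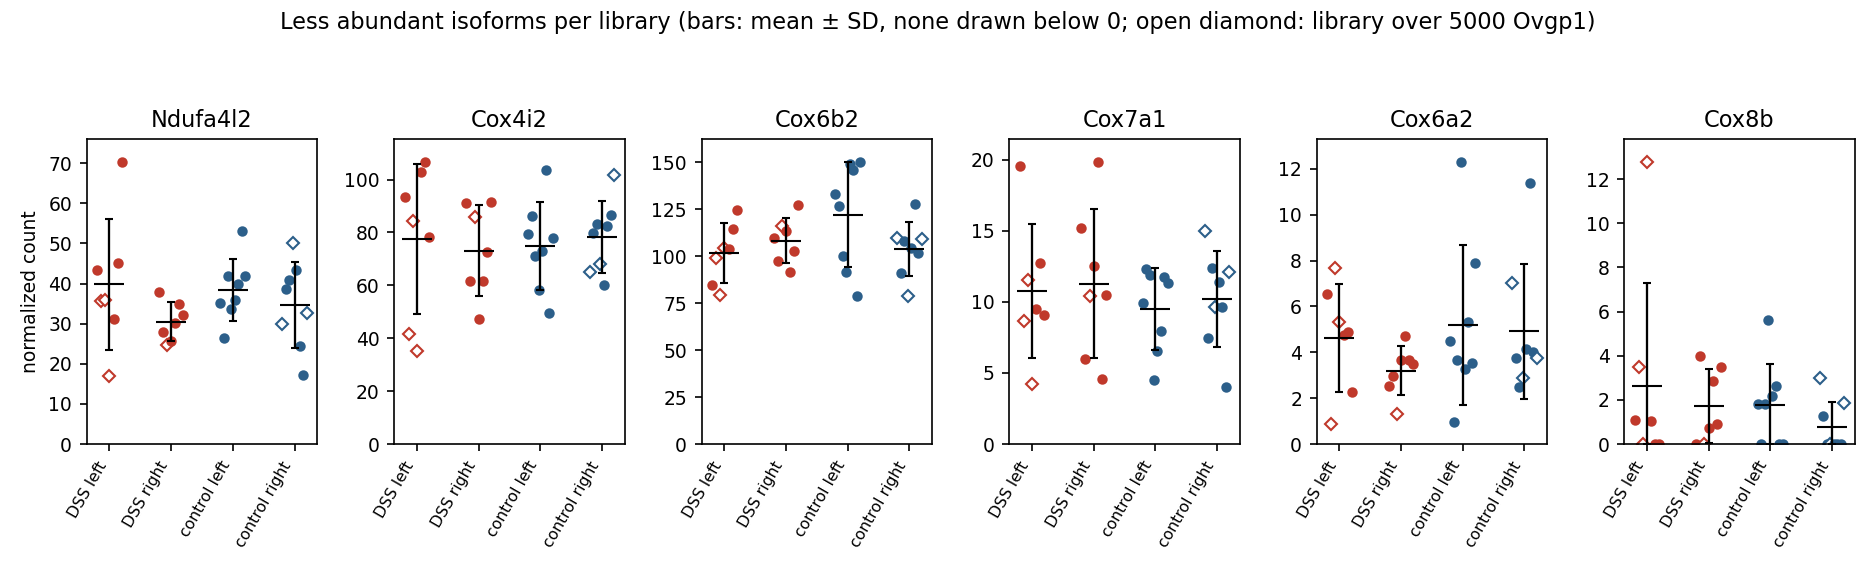
Normalized counts (y axis, from 0) of 6 less abundant isoforms per library in the 4 groups, with mean and SD bars; open diamonds mark libraries over 5000 counts of Ovgp1. The groups overlap for every gene, and the highest points of Cox8b (12.8) and Cox6a2 (12.3) lie in the DSS left and the control left group.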

How the data were processed

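Total RNA of whole ovaries was made into CEL-Seq libraries, which count 3′ ends, with a pool of 3 primers per sample, per the labels' protocols. TopHat, HTSeq and DESeq2 were used with GRCm38.p5, per the submitters' processing notes. Versions, the strand setting and the use of molecular identifiers are not given in the sources used here. The authors deposited a signal per gene, namely counts divided by 1 size factor per library, per the file headers and the values. In each library 1 read was worth 0.53 to 1.33 normalized counts, and dividing by this step gave whole reads for 99.98% to 100% of genes above 0 (tolerance 0.0051).

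For 14646 genes (mean of 5 or more), log2(value + 1) was tested two-sided with limma 3.58.1 (trend, R 4.3.3) and Benjamini-Hochberg adjustment over all genes at 0.05. Log2 differences are on this scale, which understates changes of low genes. DSS and control were compared on the mean of both ovaries per mouse, left and right with the mouse as a block, and the dependence on side on each mouse's left minus right difference. The pairing comes from the mouse number in the labels. The correlation of the 2 ovaries' deviations from the group means ran from -0.27 to 0.37 (median 0.18), over 0.1 in 10 mice. edgeR 4.0.16 and DESeq2 1.42.0 were run on the recovered reads as alternatives. No 2 libraries of a group agreed within sampling noise. Each test was also run on simulated counts with known changes. These counts held no mouse effect, so they could not check the mouse block.

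Of the 80 genes, 1 is counted but not reported here by name. The text names every other gene that passed, otherwise the 2 genes per complex with the smallest p, paralogues, catalytic subunits, the lowest and highest mean of each complex, and 2 genes per related list. The members and lists were chosen with earlier results of these data known. Groups came from the sample titles, which match the treatment field, since the protocol text about DSS is also attached to the control samples. Gene positions and overlaps are as deposited, strands from GENCODE M21. Transcript length and GC are those of the longest coding transcript in GENCODE M21. Depth limits low genes most, and intervals cover the spread between mice.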

Additional observations from a re-analysis of the deposited data

Results flagged for a closer look

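In 164 groups of 7 or 8 libraries of the named genes, 10 had a highest or lowest value far from the others. Chance alone marks about 1 group in 20. In DSS_291_11.2_left, Ndufb10 was the highest of its group at 1034 (others 774 to 851), and Ndufc2, Uqcrq and Atp5b were the lowest, at 720 (others 1032 to 1190), 661 (others 1003 to 1258) and 408 (others 552 to 640). In control_250_10.5_right, Cox7b, Atp5h and Atp5j2 were the lowest, at 495 (others 572 to 635), 332.8 (others 375 to 408) and 1106 (others 1306 to 1457). Both are libraries over 5000 counts of Ovgp1.

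The remaining 3 were Cox7b, highest in DSS_297_11.1_left at 637 (others 484 to 545) and lowest in DSS_256_10.4_right at 516 (others 600.4 to 660), and Atp5j2, highest in DSS_321_13.2_left at 1355 (others 1106 to 1199). Without the mouse of DSS_291_11.2_left, or without that of control_250_10.5_right, the side difference of Ndufc2, Uqcrq and Cox7b kept its direction and its call.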

How the results depend on the processing

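The count of 26 subunit genes that differed between left and right was 22 without the replicate block, that is without pairing the ovaries by mouse, 20 to 26 when single mice were left out (14 to 18 lower and 5 to 8 higher), 7 (7 lower, 0 higher) in the 9 mice without a high-Ovgp1 library, 4 (4 lower, 0 higher) in control mice and 1 (1 lower, 0 higher) in DSS mice. These 3 subsets hold fewer mice. All 26 genes kept their direction under each of these. Genes that most often missed the threshold were Ndufb3, Ndufs3, Atp5sl, Atp5h and Atp5e. Without genes that overlap another gene the side median of complex V was -0.12, against -0.02 over all 17 of its genes. For DSS against control, differences that had not passed changed sign for Sdha (0.0063), Cox6b2 (0.065) and Atp5b (0.013) in right ovaries alone. The cause was not tested. Depth limits Sdhd, Cox7a1 and the other low genes, and 7 against 8 mice limit how small a DSS difference can be seen.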
